A study of Rattus norvegicus with 6 samples.

Results

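The genes described here are the heat-shock and folding chaperones measured in kidneys of 2 rat strains: the HSP90, HSP70 and small heat-shock protein families, their J-domain and other cochaperones, the chaperonins, the folding enzymes of the endoplasmic reticulum and the 2 heat-shock factors. A gene entered the set if the array annotation gave a probe set 1 symbol that starts with Dnaja, Dnajb, Dnajc or Cct and a digit, or that stood on a list of 30 named genes. The rule found 74 genes among 14217 with such a probe set, 46 by the start of the name and 28 from the list, and these 74 genes had 116 probe sets. The listed genes Hsp90aa1 and Hspa8 were not analysed here, because their probe sets carry several symbols. Each gene was represented by its probe set of highest mean signal over the 6 arrays, whatever its difference between strains.

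Kidney RNA was hybridised to Affymetrix 1-colour arrays, 1 array per rat. The S group held 3 adult male inbred Dahl salt-sensitive rats (SS/Jr), a strain that develops high blood pressure when fed salt. The congenic group held 3 adult male S.LEW.D1MCO4x1x3Bx1 rats, which by their strain name carry a Lewis segment of chromosome 1 on the S background, so that both groups share that background. By its title, the series belongs to the positional study of Adamts16, a metalloprotease gene, in inherited hypertension. The sources used here do not give the diet, the exact age or the hour of tissue collection. Whole kidney holds many cell types, and fewer cells of a type cannot be told apart from less RNA per cell.

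Chaperones bind unfolded proteins and spend ATP to let them fold, or hold them until they can. In the cytosol HSP70 takes its clients from J-domain proteins, is reset by nucleotide exchange factors and passes some clients to HSP90, while the ring-shaped chaperonin TRiC encloses actin and tubulin. The endoplasmic reticulum has its own HSP70 (Hspa5, known as BiP), its own HSP90 (Hsp90b1), lectin chaperones and disulphide isomerases, and mitochondria have Hspa9, Trap1 and the chaperonin pair Hspd1 and Hspe1. Heat-shock factors, among them Hsf1, raise the cytosolic and mitochondrial genes under stress through heat-shock elements. The unfolded protein response raises those of the endoplasmic reticulum through an element of its own. In the kidney these genes are known for their response to ischaemia and to the high salt and urea of the medulla.

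Promoter sequences are shown because the elements of both pathways can be read in them, whereas the strain comparison gave no gene past the adjusted threshold on either side of it. RefSeq windows of 300 bases on assembly GRCr8, from 250 bases before to 50 after the annotated start, matched 61 of the 74 genes. The heat-shock element was searched as 3 alternating units, GAA, any 2 bases, TTC, any 2 bases, GAA. The endoplasmic reticulum stress response element was searched as CCAAT, any 9 bases, CCACG, and both were searched on both strands. The stress response element stood in 5 of 16 endoplasmic reticulum genes, in 0 of 31 cytosolic and in 0 of 7 mitochondrial ones, against 0.145% of 11700 promoters of genes on the array. A heat-shock element stood in 3 of 31 cytosolic, 2 of 7 mitochondrial and 0 of 16 endoplasmic reticulum genes, against 0.453% of the same 11700 promoters. A match is a description of the letters, and no binding was measured. The matches to the stress response element were these, read in the direction of the motif with its fixed bases in capitals.

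Calr: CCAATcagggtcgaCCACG
Canx: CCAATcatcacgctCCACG
Dnajc3: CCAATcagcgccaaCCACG
Hsp90b1, far match: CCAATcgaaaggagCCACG
Hsp90b1, near match: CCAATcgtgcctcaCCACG
Hspa5: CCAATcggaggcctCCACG

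These matches began between 232 and 43 bases before the start. The matches to the heat-shock element were these, read along the gene's strand with the 3 units in capitals.

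Cct4: TTCtgGAAggTTC
Dnaja1: GAActTTCcaGAA
Hsph1: TTCtgGAAagTTC
Hspd1, far match: TTCcgGAAggTTC
Hspd1, near match: GAAggTTCtaGAA
Hspe1, far match: TTCtaGAAccTTC
Hspe1, near match: GAAccTTCcgGAA

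Those of Hsph1 and Hspe1 lay 36 bases and 65 and 60 bases before the start, those of Hspd1 242 and 237 bases before it, and those of Cct4 and Dnaja1 began 25 and 9 bases after it. Hspd1 and Hspe1 are the only direct neighbours among the 74 genes in the order of protein-coding genes, on chromosome 9. Their promoter windows overlap on opposite strands, and both hold the same run of heat-shock units. The whole windows of Hspa5 (GRCr8 chr3:38452766-38453065, plus strand), Hspd1 (chr9:64083988-64084287, minus strand), Hsph1 (chr12:10427118-10427417, plus strand) and Cacybp (chr13:74981190-74981489, minus strand) follow, with the matches in capitals. The first is the model gene of the unfolded protein response, the next 2 are heat-shock genes, and Cacybp is the member with the smallest p in the strain comparison, whose window holds neither motif.

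Hspa5: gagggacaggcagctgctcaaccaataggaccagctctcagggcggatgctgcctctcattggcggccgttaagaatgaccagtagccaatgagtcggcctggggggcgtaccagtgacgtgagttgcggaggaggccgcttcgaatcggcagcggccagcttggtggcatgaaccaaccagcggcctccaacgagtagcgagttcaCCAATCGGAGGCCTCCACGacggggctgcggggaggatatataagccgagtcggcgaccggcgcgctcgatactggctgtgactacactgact
Hspd1: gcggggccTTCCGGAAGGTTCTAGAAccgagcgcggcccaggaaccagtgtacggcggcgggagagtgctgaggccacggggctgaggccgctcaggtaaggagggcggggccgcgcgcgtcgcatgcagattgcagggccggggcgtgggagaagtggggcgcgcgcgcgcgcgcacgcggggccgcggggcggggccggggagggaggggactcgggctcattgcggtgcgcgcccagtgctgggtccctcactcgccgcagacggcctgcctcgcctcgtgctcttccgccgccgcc
Hsph1: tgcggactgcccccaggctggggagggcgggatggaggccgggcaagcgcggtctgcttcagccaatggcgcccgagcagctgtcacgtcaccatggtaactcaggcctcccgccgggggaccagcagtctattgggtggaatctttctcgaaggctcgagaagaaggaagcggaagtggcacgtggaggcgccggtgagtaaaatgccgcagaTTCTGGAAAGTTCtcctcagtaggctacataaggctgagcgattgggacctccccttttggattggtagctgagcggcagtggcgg
Cacybp: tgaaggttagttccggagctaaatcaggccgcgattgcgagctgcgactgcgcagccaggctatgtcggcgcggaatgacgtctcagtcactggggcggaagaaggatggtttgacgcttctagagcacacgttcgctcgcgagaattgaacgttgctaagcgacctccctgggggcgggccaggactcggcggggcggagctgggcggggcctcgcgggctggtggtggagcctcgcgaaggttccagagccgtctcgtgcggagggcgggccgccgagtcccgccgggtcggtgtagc

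The median signal of an array was 162 to 178, in scaled intensity units that the submitters' software set to a common level. Of the 74 chaperone genes, 68 passed the filter on low signals and were tested with limma, beside 9334 genes in all. The tissue label was checked against fixed markers. Of 10 kidney markers, 9 were found on the array and all 9 lay above the filter, their summed signal running from 106486 to 122238 in S and from 118336 to 130229 in congenic rats. Among these 9, Umod was higher (log2 difference 0.25) and Slc12a1 lower (-0.26) in the congenic mean at unadjusted p below 0.05 in limma. Their groups overlapped. Marker sums overlapped between strains for leukocytes (10001 to 11865 in S, 10573 to 12031 in congenic rats, most of it Cd74), erythrocytes (17153 to 23735 and 12036 to 18426, with 2 of 3 markers lower in congenic rats at unadjusted p below 0.05) and adipocytes (1751 to 2382 and 1386 to 2828). Liver and skeletal muscle markers lay under the filter (0 of 3 above it in each list), as did the adrenal genes Cyp11b1, Cyp21a1 and Star, while Mrap lay above it. Of the leukocyte markers, the macrophage gene Cd68 was above each S rat in every congenic rat, at a log2 difference of 0.63 (limma, adjusted p = 0.357), and it was the 1 marker of that list at unadjusted p below 0.05. The list did not move as 1: Ptprc (-0.35) and, under the filter, Cd3e (-0.24) had lower congenic means. Cd74 had 0.08, and each of these other markers had overlapping groups. The part of blood or leukocyte content in the chaperone values was not tested.

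The first question was whether any chaperone gene differed between S and congenic kidneys. At adjusted p 0.05, limma called 0 of the 68 tested chaperones, against 0% of all 9334 tested genes. At unadjusted p below 0.05 it called 8 of 68 (11.8%), against a background of 10.4%. Of these, 6 were higher in congenic kidneys (8.82%, background 5.55%) and 2 were lower (2.94%, background 4.84%). The lead of higher genes was not stable. After quantile normalisation, cyclic loess or without the variance trend the split was 4 higher and 3 lower, and with a block by leading title number 4 and 4. It turned to 2 higher and 3 lower without S replicate 3 and to 2 and 4 without congenic replicate 2, whereas with arrays centred on their median there were 15 higher and 2 lower, a setting that also moved the median of all genes from 0.01 to 0.08. The strains did not overlap for 13 of 68 genes (19.1%), against 17.0% of all tested genes. In 10 of the 13 the congenic kidneys were higher (14.7%, background 9.59%) and in 3 lower (4.41%, background 7.45%). The adjusted count of 0 was 1 without S replicate 1 (Cacybp) and 1 without congenic replicate 3 (Dnajc10), and leaving out S replicate 3 turned the count of 8 into 5. These shares lie near the background and were not tested against it.

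**Figure D1:**
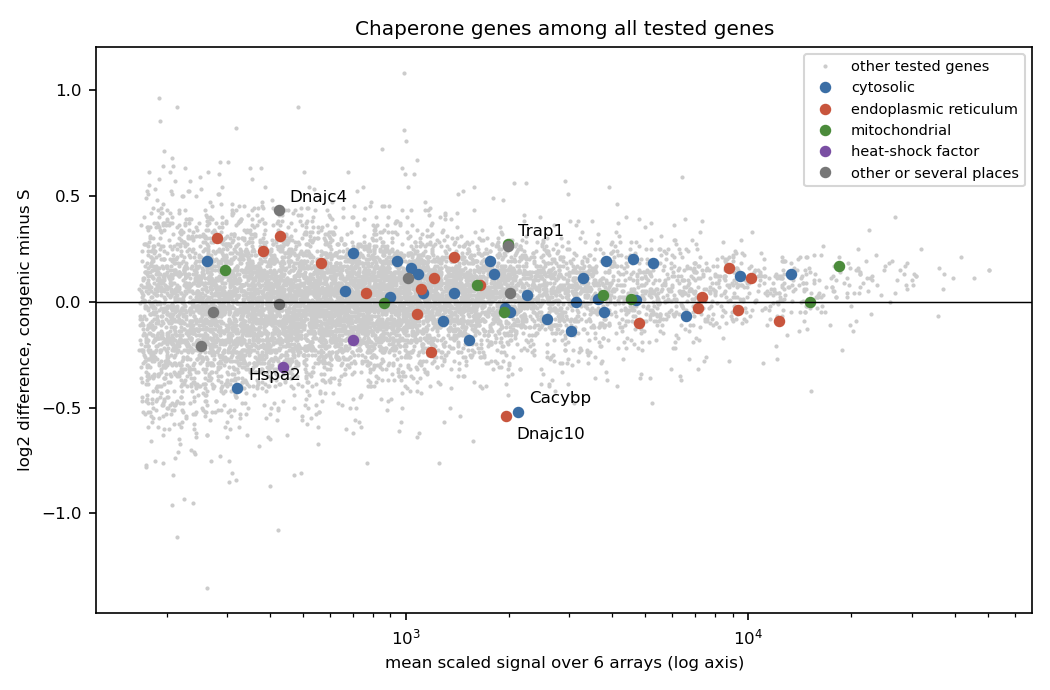
Strain difference of each tested gene (vertical axis, log2 congenic minus S) against its mean scaled signal over 6 arrays (horizontal log axis), with the 68 tested chaperones coloured by compartment. Most chaperones lie within 0.31 of 0, while Cacybp (-0.52) and Dnajc10 (-0.54) lie lowest among them and Dnajc4 (0.43) highest.

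By compartment, the median log2 difference was 0.04 over 31 cytosolic genes, 0.06 over 19 genes of the endoplasmic reticulum and 0.03 over 9 mitochondrial genes, beside 0.01 over all tested genes. Signals were higher in the congenic mean for 20 of 31 cytosolic, 12 of 19 endoplasmic reticulum and 6 of 9 mitochondrial genes, together with the rest 61.8% of the chaperones against 52.4% of all genes. The median deviation of the cytosolic genes from their own means was 0.02, -0.03 and -0.03 in S rats 1 to 3 and -0.0089, 0.03 and 0.06 in congenic rats 1 to 3, so that the strains overlapped. In the endoplasmic reticulum set it was -0.02, -0.02 and -0.09 in S rats and -0.04, 0.03 and 0.08 in congenic rats, again with overlap. In the mitochondrial set it was -0.06, -0.04 and -0.01 in S rats and -0.0060, 0.10 and 0.03 in congenic rats, which did not overlap although congenic rat 1 lay within 0.01 of S rat 3. The medians over all tested genes did not overlap either. They were 0.0063, -0.0010 and -0.01 in S rats and 0.01, 0.01 and 0.0082 in congenic rats. Congenic rat 1 was the lowest congenic animal in all 3 compartments, and without it the cytosolic median was 0.10 and that of the endoplasmic reticulum 0.12.

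**Figure D2:**
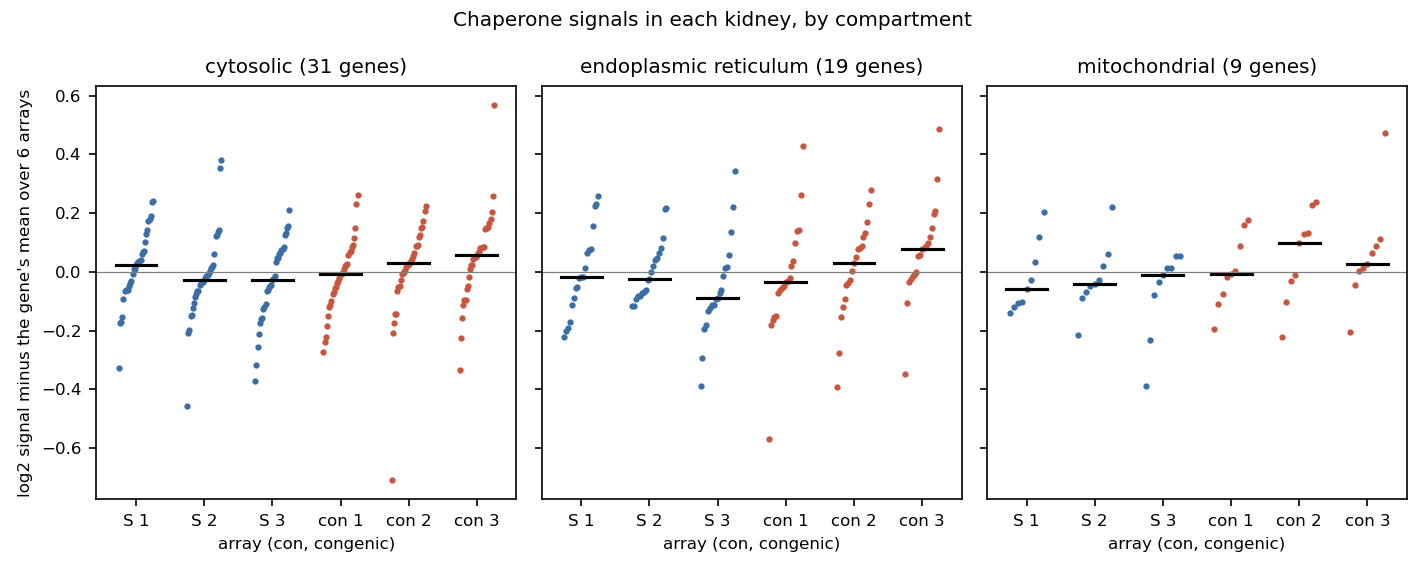
Each point is 1 tested chaperone gene in 1 kidney, as log2 signal minus that gene's mean over the 6 arrays, for S rats (blue) and congenic rats (red, "con"); black bars are medians. The medians stay between -0.09 and 0.10 in every array, and congenic rat 1 lies close to the S rats.

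Cacybp was the chaperone with the smallest p. It encodes the calcyclin-binding protein, which binds S100 proteins and the ubiquitin ligase component Siah1 and has a domain like that of HSP90 cochaperones. Its signal was 2387, 2721 and 2422 in S rats and 1769.7, 1811 and 1657 in congenic rats. Every congenic kidney lay below every S kidney, with means of 2510.0 ± 183 and 1746 ± 80.0 (SD, n = 3 each). This is a log2 difference of -0.52 (standard error 0.09, 95% interval -0.71 to -0.33), or 0.696 times the S level. The adjusted p in limma was 0.0697, which missed the threshold of 0.05. No tested probe set had a smaller adjusted p, but others shared it, among them Cish and Per1, whose unadjusted p (3.18e-05 and 3.30e-05) were smaller than that of Cacybp (3.49e-05, all in limma). A further Cacybp probe set read 1691, 1866 and 2119 in S and 1251, 1271 and 1404 in congenic rats. Its log2 difference was -0.53 (limma, adjusted p = 0.117), in the same direction and again without overlap. The first probe set's adjusted p ran from 0.0388 without S replicate 1 to 0.447 without the variance trend, and its log2 difference from -0.56 to -0.45.

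**Figure D3:**
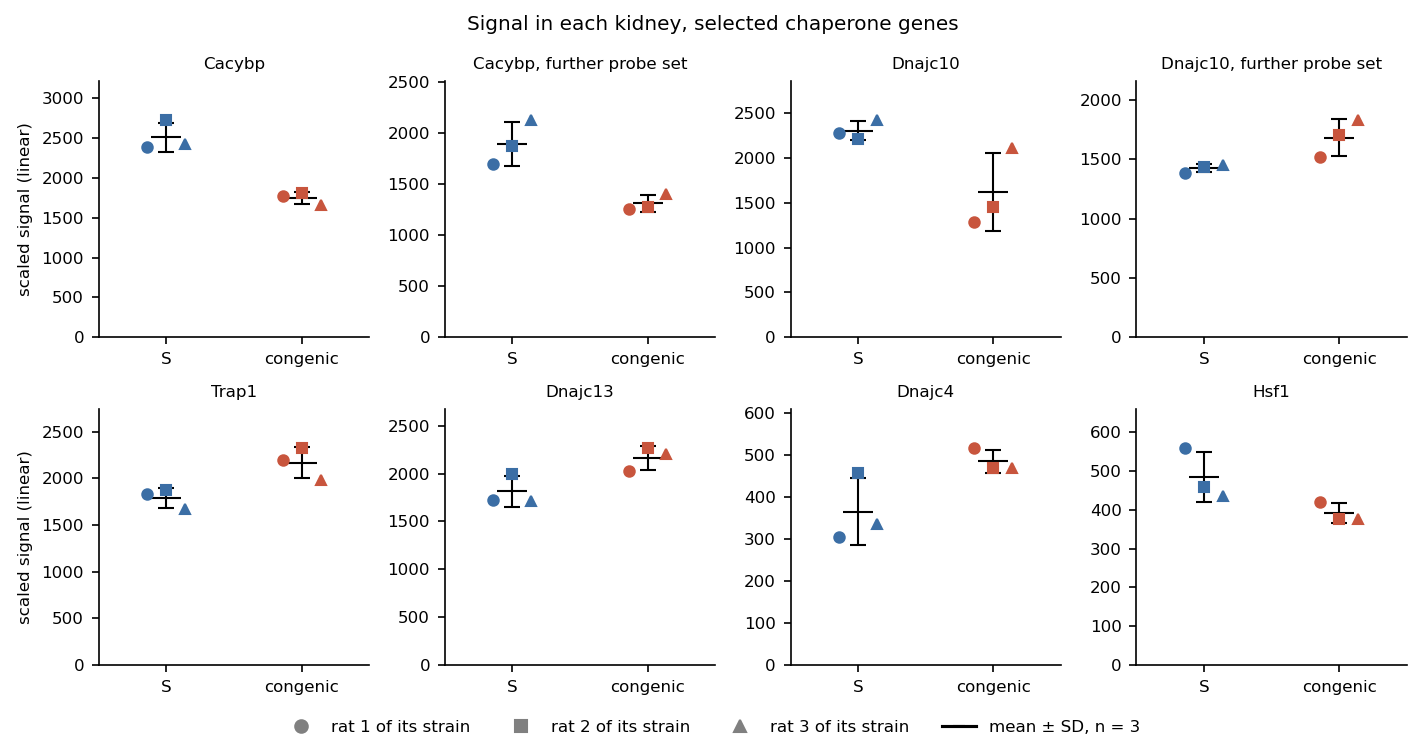
Scaled signal in each of the 6 kidneys (linear axis from 0) for 8 probe sets, with 1 symbol per rat and the mean ± SD of 3 rats in black. Both Cacybp probe sets are lower in all 3 congenic rats, whereas the 2 Dnajc10 probe sets go opposite ways.

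Hsp90ab1 and the cochaperone genes Ahsa1, Stip1 and Bag3 had smaller log2 differences than Cacybp, though the genes were not compared by a test. Hsp90ab1, the constitutive HSP90, read 14671, 12203 and 11476 in S rats and 12921, 13508 and 15287 in congenic rats. The groups overlapped, and the log2 difference was 0.13 with an interval of -0.08 to 0.33. Ahsa1, which stimulates the ATPase of HSP90, read between 1674 and 1783 in S and between 1863 and 1916 in congenic rats, a log2 difference of 0.13 without overlap (limma, adjusted p = 0.623). Stip1, the adaptor that holds HSP70 and HSP90 together, had -0.05, with 2049.7 ± 65.5 in S and 1987 ± 123 in congenic rats. Bag3, an HSP70 exchange factor of selective autophagy, read 1712, 1484 and 1656 in S and 1487, 1347 and 1459 in congenic rats, a log2 difference of -0.18 (limma, adjusted p = 0.545). Its lowest S value lay below its highest congenic value.

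Cytosolic HSP70 relatives went both ways without passing the test. Hspa4, an HSP110-type exchange factor, read 552, 703 and 672 in S and 831, 709.9 and 717 in congenic rats. The groups did not overlap, though the gap between S rat 2 and congenic rat 2 was small, and the log2 difference was 0.23 (limma, adjusted p = 0.566). Hsph1, the heat-inducible HSP110, had 0.11, with 3145 ± 104 in S and 3412 ± 441 in congenic rats, and congenic rat 3 was the highest at 3904. Hspa2, best known from the testis, read 356, 401 and 331 in S and 348, 192 and 304 in congenic rats, a log2 difference of -0.41 with an interval of -0.86 to 0.05. Congenic rat 2 was the lowest, and without it the difference was -0.15. A further Hspa2 probe set had -0.04.

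Among the 12 tested cytosolic J-domain genes, whose products deliver clients to HSP70 and start its ATP cycle, 0 reached unadjusted p below 0.05 in limma (background 10.4%), and their log2 differences ran from -0.09 to 0.19. Dnaja4 was higher in each congenic rat, with 1866, 1790.2 and 1966 against 1707, 1529 and 1696 in S (limma, adjusted p = 0.490). Its further probe set had 0.13 with overlapping groups. Dnajc12 was likewise higher in each congenic rat, at 0.13. Dnajb4 had 0.19 and Dnajb5 0.19, both with overlap. Dnaja1, a general J-domain partner of HSP70, read 6816, 6519 and 6764 in S and 5418, 6621 and 7265 in congenic rats, so that the congenic animals spread on both sides of the S rats. The classical heat-inducible Dnajb1 had -0.03, with 1973 ± 278 in S and 1921 ± 145 in congenic rats. Dnaja2, Dnajb2 and Dnajb6 had -0.05, -0.09 and -0.08, and Dnajc5, Dnajc6 and Dnajc7 had 0.04, 0.02 and 0.04. Further probe sets had the opposite sign for Dnaja1 (0.04), Dnajb1 (0.09) and Dnajc5 (-0.14 and -0.18).

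The small heat-shock proteins hold unfolded clients without ATP. Cryab, the alpha-B crystallin of the renal medulla, read 9060.4, 9051 and 9074 in S and 9949, 9667 and 10027 in congenic rats. The S values lay within 11.9 (SD) of their mean and all congenic values lay above them, and the log2 difference was 0.12 with a moderated standard error of 0.07 (limma, adjusted p = 0.567). Hspb1 read 1119, 746 and 1086 in S and 1110.0, 1197 and 959 in congenic rats, a log2 difference of 0.16 with S rat 2 apart from the rest. Hspb6 had 0.05. Hspb8, the partner of Bag3, lay under the filter on low signals, with 155, 145 and 172 in S and 137, 73.5 and 76.8 in congenic rats. Its log2 difference from a fit of all probe sets was -0.78 with an interval of -1.55 to 0.0016, and every congenic value lay below every S value. A further Hspb8 probe set, also under the filter, went the other way at 0.55 in that fit. It read 133, 41.3 and 65.7 in S and 104, 94.0 and 116 in congenic rats, with overlap.

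The cytosolic chaperonin TRiC has 8 different subunits in each ring, and all 8 genes were tested. Of these, 3 reached unadjusted p below 0.05, all higher in congenic kidneys (37.5%, background 5.55% higher), and 0 passed the adjusted threshold in limma. The share of 8 genes was not tested against the background. Tcp1 read 4664, 5025 and 5176 in S and 5294, 5939 and 5564 in congenic rats, a log2 difference of 0.18 without overlap (limma, adjusted p = 0.472). Cct3 had 0.19, with 3892, 3443 and 3382 against 3871, 4143 and 4231, where S rat 1 fell among the congenic values (limma, adjusted p = 0.452). Cct5 had 0.20, with 4796, 3950.0 and 4099 against 4540.1, 5083 and 5071, and S rat 1 again overlapped (limma, adjusted p = 0.472). A further Cct5 probe set had 0.13, with overlapping groups. These 3 genes kept their sign under every alternative run. However, the other floors, the other filters, the fit without the variance trend and the updated symbols could not change their values. Neither could the mean over probe sets for Tcp1 and Cct3, which had 1 tested probe set each. The other subunits differed from this pattern: Cct2, Cct4, Cct7 and Cct8 had 0.01, 0.0093, -0.0025 and 0.03, with standard errors of 0.08 to 0.09, and Cct6a had -0.14. Further probe sets of Cct6a and Cct8 had 0.08 and -0.01, opposite in sign to the first. The median over the 8 subunits was 0.02. The gene of Tcp1 lies on chromosome 1, as does Adamts16, with 72 protein-coding genes between them in the GRCr8 gene order. The sources used here do not give the ends of the Lewis segment.

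**Figure D4:**
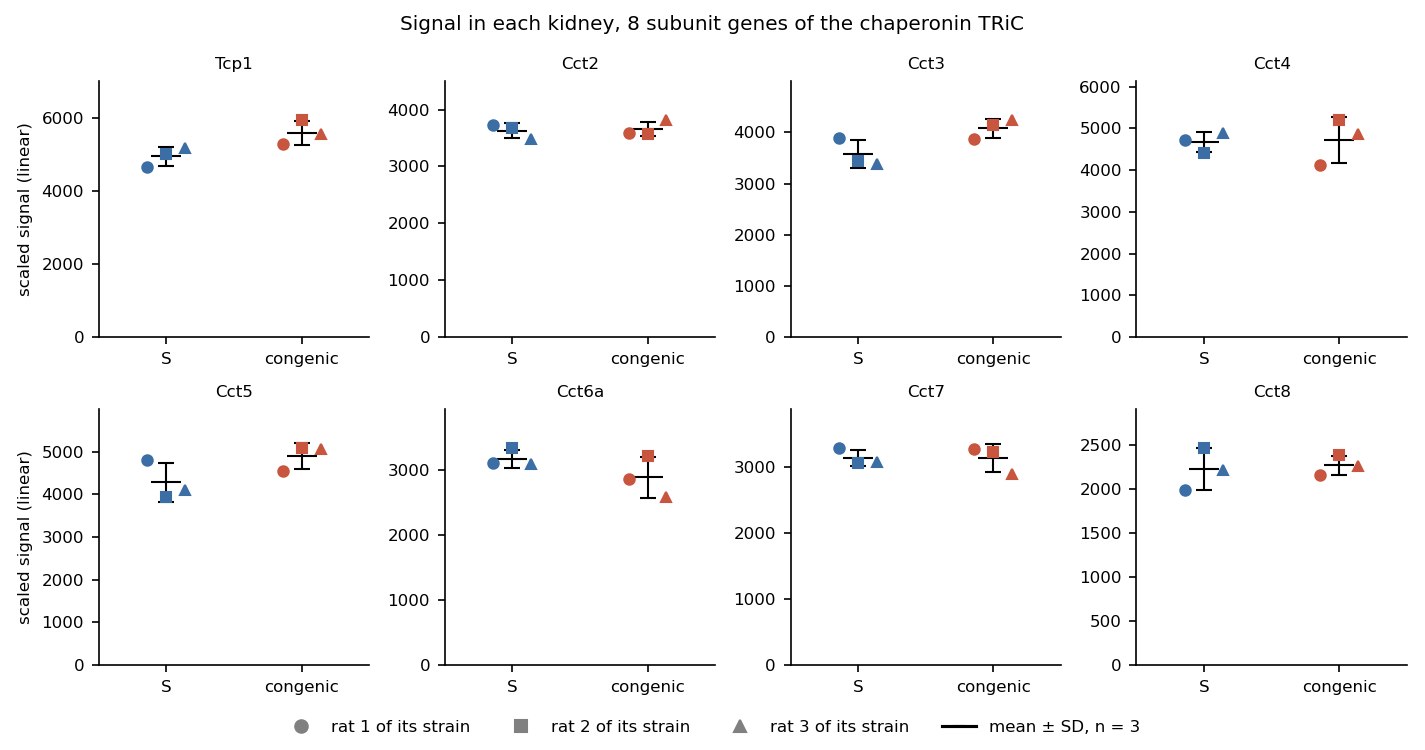
Scaled signal in each of the 6 kidneys (linear axis from 0) for the 8 TRiC subunit genes, with 1 symbol per rat and the mean ± SD of 3 rats in black. Tcp1 alone has all congenic kidneys above all S kidneys; Cct3 and Cct5 overlap through S rat 1, and Cct6a has a lower congenic mean in the probe set drawn, though not in its further one (0.08).

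In the endoplasmic reticulum, the genes of the main folding machinery varied little between strains. Hspa5 read 12100.5, 11685 and 14326 in S and 11029, 12042 and 12756 in congenic rats, a log2 difference of -0.09 with an interval of -0.28 to 0.11. S rat 3 was the highest of the 6, and without it the difference was 0.0037. Hsp90b1 read 8181, 8167 and 8337 in S and 7690.4, 10219 and 9974 in congenic rats. The S rats lay close together, while congenic rat 1 was below and the other 2 were above all of them, and the log2 difference was 0.16 (limma, adjusted p = 0.583). Hyou1, the large HSP70 relative that exchanges nucleotide on Hspa5, had -0.06. The lectin chaperones Calr and Canx, which hold glycoproteins, had -0.04 and -0.03. Canx had further probe sets at 0.18, where each congenic rat was higher, and at -0.06. The disulphide isomerases P4hb, Pdia3, Pdia4 and Pdia6 had 0.11, 0.02, 0.06 and -0.10. P4hb read 10669, 9352 and 9319 in S and 10411, 10343 and 10846 in congenic rats, with S rat 1 among the congenic values. In the probe sets that represent them, the 5 genes whose promoter window holds the stress response element ran from -0.09 (Hspa5) to 0.16 (Hsp90b1). Limma called 0 of these 5 at unadjusted p below 0.05 (background 10.4%), a share that was not tested against the background. The further Canx probe set at 0.18 lay outside that range, with unadjusted p = 0.0387 in limma.

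Of the 19 endoplasmic reticulum genes, 1 reached unadjusted p below 0.05 (5.26%, background 10.4%), and 10 of the 19 encode J-domain proteins. That gene was Dnajc10, the disulphide reductase ERdj5, which opens misfolded proteins before their degradation. Its signal was 2277, 2209.8 and 2417 in S and 1285, 1451 and 2110.5 in congenic rats. All congenic values lay below all S values, but congenic rat 3 was close to them, for a log2 difference of -0.54 (standard error 0.14; limma, adjusted p = 0.226). Without congenic replicate 3 it was -0.75 and the adjusted p was 0.0344, the lowest of a range that reached 0.638. A further Dnajc10 probe set read 1388, 1439 and 1457 in S and 1521, 1704 and 1829 in congenic rats. There each congenic rat was higher, at a log2 difference of 0.23 (limma, adjusted p = 0.421), so that the 2 probe sets of this gene went opposite ways. Averaged over both, the gene had -0.15.

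Other J-domain genes of this compartment were mostly higher in the congenic mean, 8 of 10 in all with a median of 0.15. Dnajb12, a membrane protein of protein degradation, had 0.31, from 362, 436 and 345 in S to 569, 437 and 419.8 in congenic rats, with overlap through S rat 2 (limma, adjusted p = 0.527). A further Dnajb12 probe set had -0.03. Its relative Dnajb14 was higher in each congenic rat, at 366, 351 and 336 against 419.9, 417 and 402 (log2 difference 0.24; limma, adjusted p = 0.599). Dnajc22 had 0.21, with 1222, 1351 and 1274 against 1516, 1668 and 1278. Dnajc18 had 0.30 and Dnajc14 0.18, and the further Dnajc14 probe set had -0.30. The Hspa5 cochaperones Dnajc3 and Dnajb11 had 0.11 and 0.08, and Dnajc1 had 0.04, with -0.05 in a further probe set. Dnajb9, the J-domain partner that keeps the stress sensor IRE1 in check, was the other gene with a lower congenic mean. It read 1182, 1363 and 1285 in S and 1186, 1141 and 921 in congenic rats, a log2 difference of -0.24 (limma, adjusted p = 0.485).

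In mitochondria, Trap1, the HSP90 of that organelle, was higher in each congenic rat, with 2200.3, 2324 and 1988 against 1828, 1876 and 1675 in S. The log2 difference of 0.27 (standard error 0.09, interval 0.08 to 0.47) is a ratio of 1.21 (limma, adjusted p = 0.326). Its sign was the same under all 19 alternatives. However, the other floors, the other filters, the fit without the variance trend and the updated symbols could not change its value. Neither could the mean over probe sets, since Trap1 had 1 tested probe set. The chaperonin subunits Hspd1 and Hspe1, which share a promoter region, both had overlapping groups, and the 2 genes were not compared by a test. Hspd1 read 17548, 15768 and 18449 in S and 17350, 21391 and 19766 in congenic rats, a log2 difference of 0.17 (limma, adjusted p = 0.527). Hspe1 read 15500, 14221 and 15714 in S and 13226, 16569 and 15797 in congenic rats, a log2 difference of -2.5e-04. In both genes congenic rat 2 had the highest signal, and congenic rat 1 was the lowest of its strain. Hspa9, the HSP70 that pulls proteins through the import channel, had 0.03 with an interval of -0.14 to 0.21. Further Hspa9 probe sets had -0.03 and 0.06. Dnajc19 and Dnajc15, J-domain proteins of that channel, had 0.01 and -0.05. Dnaja3, Dnajc11 and Dnajc30 had 0.08, 0.15 and -0.0073, and a further Dnajc11 probe set had 0.61, with 290.0, 147 and 154 in S and 279, 288 and 292 in congenic rats (limma, adjusted p = 0.418). A further Dnajc30 probe set lay under the filter, with 6.81, 7.24 and 8.75 in S and 70.7, 49.2 and 111 in congenic rats. Its log2 difference from a fit of all probe sets was 2.57, without overlap and with 3 arrays raised to the floor.

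Both heat-shock factor genes had lower congenic means, without passing the test. Hsf1 read 559, 459 and 437 in S and 421, 376 and 376 in congenic rats, a log2 difference of -0.31 with an interval of -0.63 to 0.02 and no overlap (limma, adjusted p = 0.506). Hsf2 read 658, 797 and 783 in S and 650.3, 677 and 645 in congenic rats, a log2 difference of -0.18 with S rat 1 among the congenic values. Its further tested probe sets had -0.21 and -0.22. The genes with a heat-shock element in the promoter window were spread about 0, namely Cct4 (0.0093), Dnaja1 (-0.07), Hspe1 (-2.5e-04), Hsph1 (0.11) and Hspd1 (0.17).

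Of 7 tested J-domain genes of other or several places, 2 were higher in congenic kidneys at unadjusted p below 0.05 in limma (28.6%, background 5.55%). At that level 0 were lower (background 4.84%), and the share of 7 genes was not tested against the background. Dnajc13, an endosomal protein of receptor recycling, read 1728, 1998 and 1714 in S and 2025, 2264 and 2209 in congenic rats, a log2 difference of 0.26 (limma, adjusted p = 0.366). Dnajc4 read 304, 457 and 335 in S and 516, 468 and 469.6 in congenic rats, a log2 difference of 0.43 (limma, adjusted p = 0.404). In both genes S rat 2 was the S animal nearest to the congenic rats. The splicing-linked Dnajc8, the histone chaperone Dnajc9 and the ribosome-bound Dnajc2 had 0.04, 0.11 and -0.01. A further Dnajc2 probe set lay under the filter, with 7.02, 29.6 and 31.0 in S and 51.2, 78.6 and 67.8 in congenic rats. Its log2 difference from a fit of all probe sets was 1.53, without overlap. Dnajc27 and Dnajc21, the latter a ribosome assembly factor, had -0.05 and -0.21. Besides Hspb8, the filter left out 5 genes. Dnajc24, a cofactor of diphthamide synthesis, read 187, 156 and 169 in S and 124, 146 and 148 in congenic rats. Dnajc17, Dnajb3, Dnajb7 and Dnajb13 had overlapping values, the highest being 209.

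**Figure D5:**
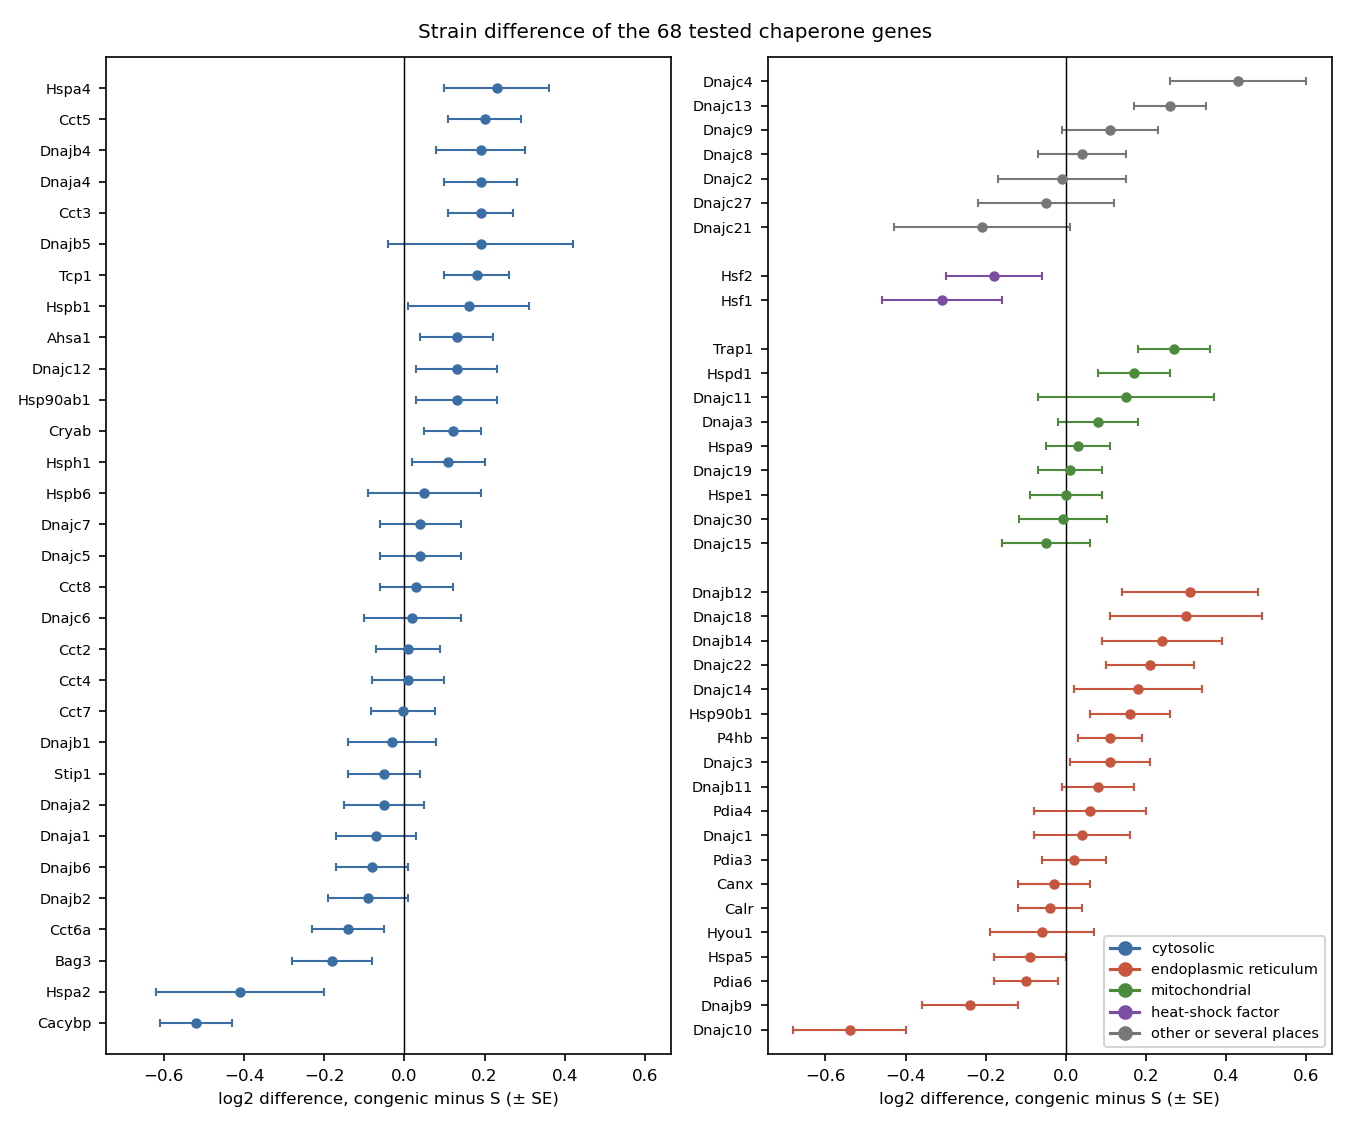
Log2 difference, congenic minus S, of each of the 68 tested chaperone genes with its standard error from limma, in 2 panels ordered by value within each compartment. Cacybp, Dnajc10 and Hspa2 lie farthest below 0, and Dnajc4, Dnajb12, Dnajc18 and Trap1 farthest above.

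Genes that work with these chaperones but lie outside the set gave 0 calls at adjusted p 0.05 in limma as well. Of 27 tested cytosolic helpers, 2 were higher at unadjusted p below 0.05 (7.41%, background 5.55%) and 0 lower (background 4.84%), with a median log2 difference of 0.07 beside 0.01 over all genes. They were Ttc1 (0.33), a tetratricopeptide protein, and Hspa1a (0.43), the stress-inducible HSP70, which read 839, 783 and 819 in S and 1024, 824 and 1562 in congenic rats. Congenic rat 3 was high and S rat 1 exceeded congenic rat 2, and the near-identical copy Hspa1b may share this probe set's signal. Hspbp1, an HSP70 exchange factor, had 0.19. Of 37 tested genes of the unfolded protein response and endoplasmic reticulum folding, 3 were higher and 1 lower at that level (10.8% in all, background 10.4%), with a median of 0.10. The smallest p values belonged to Sil1 (0.44), the exchange factor of Hspa5, Herpud1 (0.25) and Edem1 (0.26), both of protein degradation. Sil1 read 395, 446 and 475 in S and 712, 543 and 539.5 in congenic rats (limma, adjusted p = 0.333). Of 17 mitochondrial quality control genes, 2 were higher, the import receptor gene Tomm20 (0.27) and the peptidase gene Pitrm1 (0.21), and 1 was lower, the protease gene Yme1l1 (-0.32), together 17.6% against the same 10.4%. Of 12 prefoldin and tubulin cofactor genes, 0 reached that level (background 10.4%). The smallest p values among them were those of Tbce (0.24), Pfdn2 (0.17) and Pdcl (-0.21).

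Signs of handling, clock phase and temperature were read beside these values, since heat-shock genes respond to them. The summed signal of 6 immediate-early genes was 2668 to 2964 in S and 1886 to 2959 in congenic rats, with Fos and Atf3 under the filter. Of the 4 above it, Dusp1 had a lower congenic mean at unadjusted p below 0.05, with a log2 difference of -0.35 (limma, adjusted p = 0.384). The summed signal of 6 clock genes, which went both ways, was 4137 to 4750.4 in S and 4696 to 6055 in congenic rats. Per1 was higher (log2 difference 0.92) and Bmal1 lower (-0.64) in each congenic rat (limma, adjusted p = 0.0697 and 0.276). Nr1d1 (0.68), under the filter, was also higher in each of them. Nr1d2 (0.76), Dbp (0.31) and Per2 (0.17) had higher congenic means with overlapping groups. The cold-inducible genes Cirbp and Rbm3 summed to 2508 to 2966 in S and 2253 to 2350.1 in congenic rats, without overlap, and most of the sum was Rbm3. Rbm3 was lower in each congenic rat, at a log2 difference of -0.29 (limma, adjusted p = 0.276). Cirbp had -0.11 with overlapping groups. The part of handling, clock phase or temperature in the chaperone values was not tested.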

How the data were processed

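Kidney RNA of 6 rats was measured on 6 arrays, and the deposited table holds linear intensities per probe set. Per the submitters' processing notes, the authors computed these intensities in GCOS 1.4. The sources used here do not give its settings, detection calls or the array's genome build. The arrays shared a common trimmed mean, and no further normalisation was applied. Of 31099 probe sets, 57 controls were left out. Signals under the 10th percentile of the table (12.3) were raised to it, log2 was taken, and the 15521 of 31042 probe sets with a mean above the median were tested. Congenic was compared with S in limma 3.58.1 (lmFit and trended eBayes, R 4.3.3), with Benjamini-Hochberg adjustment over all probe sets tested and a threshold of 0.05. Intervals are 95% intervals from limma, and the number of arrays limits the precision (median standard error 0.145 on the log2 scale). The exact permutation test over 3 against 3 arrays, 2-sided, cannot go below p = 0.1, so its values are not printed.

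Probe sets were named from the platform annotation, and no member's symbol changed through its Entrez identifier. Members were put in compartments from textbook knowledge. The rule named members with unadjusted p below 0.05, those whose groups did not overlap with a fold of at least 1.2, the 3 of highest signal and the 2 of smallest p per direction in each compartment, and the heat-shock factors; further members were named, with their values known, to account for the set. Of the related lists, the 3 genes of smallest p were named. The members and lists were chosen with earlier results of these data known. Sequences are from RefSeq (GRCr8). The fit was run on simulated data with planted changes larger than that of any tested chaperone. That run does not cover changes of the size seen here. Alternatives covered the floor, a pseudocount of 16, the filter, normalisation, the variance model, array weights, a block by leading title number (under 10 or not), the choice of probe set and each array left out. Figures were drawn with matplotlib 3.10.9.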

Additional observations from a re-analysis of the deposited data

How the results depend on the processing

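The count of 0 chaperones at adjusted p 0.05 was 1 without S replicate 1 (Cacybp, log2 difference -0.56, adjusted p = 0.0388 in limma) and 1 without congenic replicate 3 (Dnajc10, -0.75, adjusted p = 0.0344), and ran from 0 to 1 with each array left out. The count of 8 at unadjusted p below 0.05 was 17 with arrays centred on the median, where 13.3% of all tested genes reached that level, and ran from 5 without S replicate 3 to 11 without congenic replicate 1 with each array left out. Centring gave compartment medians of 0.11 (cytosolic), 0.13 (endoplasmic reticulum) and 0.10 (mitochondrial). With each array left out, the cytosolic median ran from 0.02 to 0.10, that of the endoplasmic reticulum from 0.03 to 0.12 and the mitochondrial one from 2.4e-06 to 0.07. Of 25 named and tested genes, 18 kept their sign under all settings. The other 7 had small differences, and the sign turned in 23 of 471 pairs of gene and setting. These pairs include settings that could not turn a sign. The floors at the 5th and 20th percentiles, the other filters, the fit without the variance trend and the membership by updated symbol left the values of these genes unchanged. So did the mean over probe sets for genes with 1 tested probe set. Centring turned Calr (0.04), Dnaja1 (0.0021), Dnajc15 (0.02), Dnajc30 (0.06) and Hspe1 (0.07). Quantile normalisation turned Dnajc19 (-0.02) and Dnajc30 (0.0038), and cyclic loess the same genes (-0.03 and 1.2e-04). Array weights and the title-number block turned Hspe1 (0.0092 and 0.0067). With each array left out, the log2 differences ran for Dnaja1 from -0.16 to 0.05, Dnajc15 from -0.13 to 0.05, Dnajc19 from -0.04 to 0.07, Dnajc30 from -0.05 to 0.05, Hspa5 from -0.14 to 0.0037 and Hspe1 from -0.07 to 0.10. The cause was not tested. No paired analysis was possible because the strains share no replicate number in the labels. Without detection calls, signals under the filter have no known background.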

Other observations

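Between rats of 1 strain, the tested chaperones varied little. The median within-strain SD was 0.12 on the log2 scale over 68 genes, against 0.15 over all 9334 tested genes, whose median signal was lower (719 against 1784). Genes in the middle signal range of the chaperones had a median SD of 0.12 (3055 genes). The widest spreads among chaperones were those of Dnajb5 (0.34), Hspa2 (0.33) and Dnajc11 (0.33), named after their values were seen. The heat-inducible Hspb1 had 0.26.

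Of the 68 tested chaperones, 23 had 27 further tested probe sets, and 15 of these 27 had the sign of the probe set that represented the gene. Dnajc10 was the case in which both probe sets reached unadjusted p below 0.05 in limma with opposite signs. The 74 genes lie on 19 chromosomes. On chromosome 1, with Adamts16, lie Bag3, Dnajb13, Dnajc4, Hspb6, Stip1 and Tcp1, and Tcp1 is the nearest of them.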
